A study of Mus musculus with 4 samples.

Results

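*Foxp3* and 6 further genes associated with regulatory T cells were examined in CD4 T cells that carried either an empty or a Tox-expressing retrovirus. The genes were chosen by name, with earlier results of these data known. The set holds the transcription factors *Foxp3*, *Ikzf2* (Helios) and *Ikzf4* (Eos), the surface proteins *Lrrc32* (GARP), *Nrp1* (neuropilin-1) and *Gpr83*, and the cytokine subunit *Ebi3*. They are 7 of the 24369 genes listed in the RNA-seq data. All 7 passed the filter on low counts and were among the 14143 genes tested.

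The cells were naive CD4 T cells from the spleen of WT C57BL/6 mice. They were cultured unpolarized, that is with anti-CD3, anti-CD28 and IL-2 and no cytokines added to direct a lineage, and transduced on day 2. The EV RV group received the vector MSCV-IRES-eGFP, and the Tox RV group received MSCV-Tox-IRES-eGFP, in which the viral promoter drives Tox together with GFP. On day 5, both groups were restimulated for 5 h through the T cell receptor and sorted as GFP+ CD4 T cells. Each group had 2 libraries from separate mice, and which mouse gave which numbered library is not stated. Both groups therefore carried GFP and had been activated, and neither was a culture set up to make regulatory T cells.

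Regulatory T cells (Tregs) restrain other T cells, and most CD4 Tregs depend on the X-linked forkhead factor Foxp3. In mice, Foxp3 can be switched on in the thymus, or in mature CD4 T cells that are activated in the presence of TGF-β. The other 6 genes are often used with *Foxp3* to describe Tregs, but none of them is limited to Tregs, and several are known in activated conventional CD4 T cells.

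The libraries held between 46989997 and 74548723 expected counts, which are the fragments that the quantification program RSEM assigned to genes. Counts were scaled to each 1000000 counts of a library by the TMM method (CPM). On this scale the transduced gene *Tox* measured 11.7 in EV RV replicate 1, 5.73 in EV RV replicate 2, 121 in Tox RV replicate 1 and 99.9 in Tox RV replicate 2. The 2 groups did not overlap, with a log2 fold change (Tox RV over EV RV) of 3.68 and an SE of 0.38, or of 4.27 without EV RV replicate 1. EV RV replicate 1 stood apart from the other 3 libraries. On the first principal component, which held 58.0% of the variance, it lay at −53.8 while the others lay between 5.70 and 25.8, and the ribosomal gene *Rn45s* took 24.7% of its counts against 7.14% to 12% in the others. Log2 fold changes are therefore given with all 4 libraries and then without this library. Of the cell type markers examined, *Cd4* was at 324 to 479 CPM, *Cd8a* at 1.54 to 2.14 CPM, and *Ncr1* (NK cells), *Ms4a1* and *Pax5* (B cells) and *Pf4* (platelets) were at 0 in all 4 libraries. The summed markers of the other cell types lay between 78.2 and 132 CPM for 5 NK cell genes, between 31.7 and 51.2 CPM for 5 dendritic cell genes, and between 0.906 and 4.77 CPM for the lists of CD8 T cells, B cells, myeloid cells and platelets. Of the NK cell genes, *Eomes* made up most of the sum, *Klrk1* was at 36.6 and 10.5 CPM in EV RV and 17.2 and 4.86 CPM in Tox RV, and *Klrd1* at 14.2 and 1.90 CPM in EV RV and 10.2 and 1.99 CPM in Tox RV. Both were higher in replicate 1 of each group and highest in EV RV replicate 1, and the part of such cells or transcripts in the results that follow was not tested.

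First, the levels of the 7 genes were compared with each other in TPM, transcripts among each 1000000 transcripts, a level that is corrected for transcript length. *Foxp3* had the lowest TPM of the 7 genes in each library and *Lrrc32* the highest, and the others filled a range between them. In EV RV, the mean TPM ± SD (n = 2) was 23.5 ± 9.87 for *Lrrc32*, 17.6 ± 11.6 for *Ikzf2*, 16.2 ± 4.42 for *Ebi3*, 14.9 ± 1.2 for *Nrp1*, 10.7 ± 6.75 for *Ikzf4*, 1.07 ± 0.297 for *Gpr83* and 0.405 ± 0.120 for *Foxp3*. In Tox RV, it was 13.0 ± 2.69 for *Lrrc32*, 10.5 ± 0.658 for *Ikzf2*, 10.1 ± 0.735 for *Nrp1*, 9.81 ± 0.771 for *Ebi3*, 5.64 ± 1.14 for *Ikzf4*, 0.700 ± 0.240 for *Gpr83* and 0.425 ± 0.163 for *Foxp3*. From *Lrrc32* to *Ikzf4* in EV RV, and from *Lrrc32* to *Ebi3* in Tox RV, each gene was within 1 SD of the next, by the larger SD of the pair. The genes were measured in the same libraries, so that this SD between libraries does not settle their order. Within each library, *Lrrc32* was the highest, *Ikzf4* the fifth and *Gpr83* the sixth. The order of *Ikzf2*, *Ebi3* and *Nrp1* changed from library to library. Averaged over the 4 libraries, the TPM of *Lrrc32* was 43.9 times that of *Foxp3*, and the TPM of *Gpr83* was 2.13 times that of *Foxp3*. Thus, 5 of the 7 genes were detected at 4.83 TPM or more in samples with very little *Foxp3* RNA. In sorted bulk samples, a lower level may mean fewer cells with the RNA or less RNA in each cell, and these cannot be told apart.

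**Figure D1:**
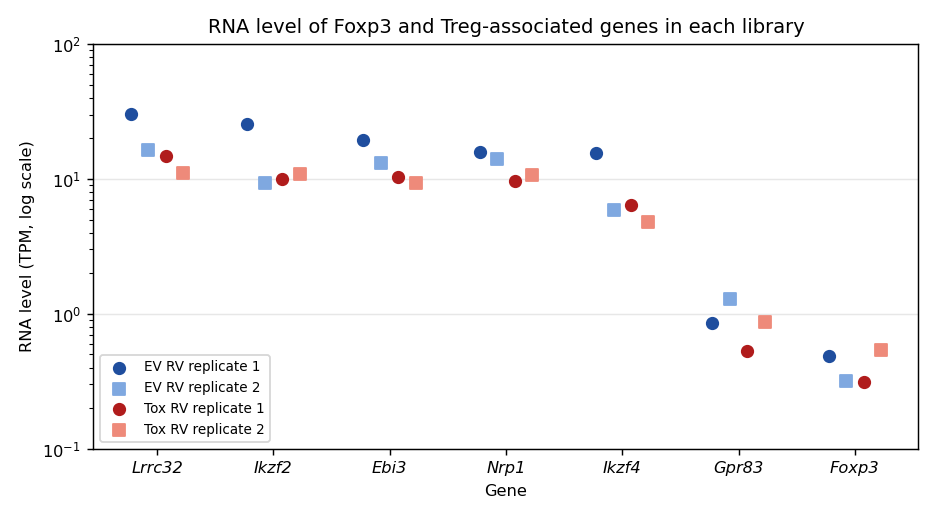
Level of each of the 7 genes in TPM on a log axis, with 1 point per library and the groups EV RV and Tox RV shown separately. *Foxp3* and *Gpr83* lie between 0.31 and 1.28 TPM, and the other 5 genes between 4.83 and 30.4 TPM, with EV RV replicate 1 as the highest point for *Ikzf2*, *Ikzf4*, *Lrrc32*, *Nrp1* and *Ebi3*.

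The 3 transcription factors were examined next, starting with *Foxp3*, the factor that defines the Treg lineage. The EV RV libraries held 45 and 55 counts of *Foxp3* (0.49 and 0.32 TPM), and the Tox RV libraries held 46 and 65 counts (0.31 and 0.54 TPM), replicate 1 being given first in each pair here and for the genes that follow. The groups overlapped, with 1 higher and 1 lower library in each. Counting error alone gave exact 95% Poisson intervals of 32.8 to 60.2, 41.4 to 71.6, 33.7 to 61.4 and 50.2 to 82.8 counts in these 4 libraries, in the same order. By mean TPM, *Foxp3* ranked 12695 of the 14143 genes tested. It was nevertheless above the floor of 3 counts in every library, so that it was detected at this depth. By edgeR's quasi-likelihood test over all genes, the log2 fold change was 0.15 with an SE of 0.45 (adjusted p = 0.952, Benjamini-Hochberg). The 95% confidence interval ran from −0.97 to 1.28, a fold between 0.510 and 2.42, so that a 2-fold increase lies within it and a 2-fold decrease just outside it. Leaving out EV RV replicate 1 gave 0.44, and the value turned to −0.11 without EV RV replicate 2 and to −0.29 without Tox RV replicate 2. Accordingly, no direction can be given for *Foxp3*.

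In the mm10 genome build (GENCODE M21), *Foxp3* lies on the plus strand at chrX:7573644-7595245. There, 640 bases at its start overlap *Ppp1r3f* and 1437 bases at its end overlap *Ccdc22*, both on the other strand, and the noncoding genes *Flicr* (same strand) and *Gm36995* (other strand) also overlap it and are not among the genes listed. *Ppp1r3f* was at 4.10 to 5.13 CPM and *Ccdc22* at 7.91 to 9.10 CPM, against 0.723 to 1.25 CPM for *Foxp3*. These overlaps are of whole gene spans, introns included, and shared exons were not measured. Whether counting used the strand of the reads is not stated, so that the few *Foxp3* counts are uncertain as far as exons are shared. The abundance-weighted transcript length that RSEM gave for *Foxp3* was 3765 to 3769 bases in the 4 libraries. The other genes lie at chr1:69531214-69687245 on the minus strand (*Ikzf2*), chr10:128630843-128645991 on the minus strand (*Ikzf4*), chr7:98489283-98502181 (*Lrrc32*), chr8:128358604-128503363 (*Nrp1*), chr17:55952640-55957022 (*Ebi3*) and chr9:14860210-14870789 (*Gpr83*), the last 4 on the plus strand, and all 7 are protein-coding. RefSeq gave 5 promoter windows, from 250 bases before to 50 bases after a transcription start (GRCm38.p6, the assembly of mm10), for 4 of the 7 genes (*Foxp3*, *Nrp1*, *Ebi3* and *Gpr83*). The windows of *Foxp3* and *Gpr83*, the 2 genes with the lowest RNA levels, are shown 5′ to 3′ on the plus strand, with each TATAAA on either strand in capitals. *Foxp3* has 2 annotated starts, and its windows lie at chrX:7579426-7579725 and chrX:7580233-7580532, both within the gene, and that of *Gpr83* lies at chr9:14859960-14860259.
Foxp3, upstream start: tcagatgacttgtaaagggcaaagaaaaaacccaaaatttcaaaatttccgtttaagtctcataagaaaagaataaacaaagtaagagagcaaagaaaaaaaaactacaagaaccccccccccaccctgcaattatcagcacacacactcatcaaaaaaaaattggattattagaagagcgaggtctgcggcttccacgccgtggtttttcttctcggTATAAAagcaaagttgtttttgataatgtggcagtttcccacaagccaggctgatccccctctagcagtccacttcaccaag
Foxp3, downstream start: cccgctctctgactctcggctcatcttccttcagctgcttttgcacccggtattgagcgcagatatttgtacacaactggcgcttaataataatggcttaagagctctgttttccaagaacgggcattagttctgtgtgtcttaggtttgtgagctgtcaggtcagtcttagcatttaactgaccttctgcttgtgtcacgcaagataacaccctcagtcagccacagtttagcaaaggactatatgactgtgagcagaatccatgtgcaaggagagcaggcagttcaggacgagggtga
Gpr83: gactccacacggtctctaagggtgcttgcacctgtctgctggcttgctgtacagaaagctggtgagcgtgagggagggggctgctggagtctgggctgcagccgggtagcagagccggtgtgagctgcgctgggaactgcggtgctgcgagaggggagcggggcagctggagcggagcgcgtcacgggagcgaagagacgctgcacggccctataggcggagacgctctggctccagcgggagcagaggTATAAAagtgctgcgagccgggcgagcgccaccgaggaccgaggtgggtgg
TATAAA, the core of the TATA box, was searched for after the sequences had been seen. It begins 32 bases before the upstream start of *Foxp3* and 1 base before the start of *Gpr83*, and it occurs in 13.6% of the 32851 RefSeq promoter windows. None of the 5 windows holds, on either strand, the AP-1 motif TGANTCA (in 7.81% of all windows), the forkhead motif TGTTTAC (3.65%) or the RUNX motif TGTGGT (16.8%). This says only that these letters are not in these windows.

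*Ikzf2* encodes Helios, a zinc-finger factor of the Ikaros family found in most thymus-derived Tregs. It had 6050 and 4187 counts in EV RV and 3832 and 3433 counts in Tox RV, or 143 and 55.0 CPM in EV RV and 60.6 and 66.2 CPM in Tox RV. EV RV replicate 1 was higher than the other 3 libraries, and EV RV replicate 2 was lower than both Tox RV libraries, so that the groups overlapped. The log2 fold change was −0.65 (SE 0.43, adjusted p = 0.897 by edgeR's quasi-likelihood test) with all 4 libraries and 0.20 without EV RV replicate 1. Without EV RV replicate 2 instead, it was −1.17 with an adjusted p of 0.0307 (edgeR), where the remaining EV RV library has no replicate and is assumed to vary like the Tox RV pair. The direction for *Ikzf2* thus rested on which EV RV library was used.

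*Ikzf4* encodes Eos, an Ikaros family factor that acts as a corepressor with Foxp3. It was at 31.7 and 12.8 CPM in EV RV and 14.4 and 10.8 CPM in Tox RV. EV RV replicate 1 was again well above the other 3 libraries, among which EV RV replicate 2 lay between the 2 Tox RV libraries. *Ikzf4* had a log2 fold change of −0.82 (SE 0.44, 95% confidence interval −1.90 to 0.26, adjusted p = 0.897, edgeR), and it shrank to −0.03 without EV RV replicate 1. Without EV RV replicate 2, it was −1.33, with an adjusted p of 0.0433 (edgeR). From EV RV replicate 2 to EV RV replicate 1, *Ikzf2* rose by 1.38 and *Ikzf4* by 1.31 on the log2 CPM scale. With the sign kept, these differences lie above those of 96.8% and 96.2% of all genes tested.

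The other Ikaros family genes, whose products are zinc-finger factors of lymphocyte development, were compared from the same fit. None of the 5 genes of the family passed the adjusted p-value, and 3 had a log2 fold change above 0. *Ikzf1* (Ikaros) was at 150.4 and 103 TPM in EV RV and 146 and 144 TPM in Tox RV, a log2 fold change of 0.29, or 0.54 without EV RV replicate 1. *Ikzf3* (Aiolos) was at 54.2 and 28.9 TPM in EV RV and 42.3 and 46.4 TPM in Tox RV, a log2 fold change of 0.19 that was 0.66 without EV RV replicate 1 and −0.16 without EV RV replicate 2. *Ikzf5* (Pegasus) was at 12.4 and 11.1 TPM in EV RV and 11.2 and 12.3 TPM in Tox RV (0.09, or 0.13 without EV RV replicate 1). For *Ikzf3* and *Ikzf5*, the groups overlapped. Of the forkhead relatives of *Foxp3*, *Foxp1*, which is known in naive T cells, was at 39.3 and 23.4 TPM in EV RV and 23.7 and 24.4 TPM in Tox RV, and *Foxp4* at 75.9 and 19.4 TPM in EV RV and 32.0 and 22.2 TPM in Tox RV. Their log2 fold changes were −0.30 and −0.71, and neither passed the adjusted p-value (both 0.897, edgeR). Without EV RV replicate 1, both were above 0, at 0.08 for *Foxp1* and 0.52 for *Foxp4*. *Foxp2* did not pass the low-count filter. In TPM, each of *Foxp1* and *Foxp4* was far above *Foxp3* in every library.

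Next, the surface proteins were compared. *Lrrc32* encodes GARP, which tethers latent TGF-β to the cell surface and appears on activated Tregs. It was at 66.8 and 38 CPM in EV RV and 35.5 and 26.5 CPM in Tox RV. Both Tox RV libraries were below both EV RV libraries, although Tox RV replicate 1 lay close to EV RV replicate 2. *Lrrc32* had a log2 fold change of −0.76 (SE 0.32, 95% confidence interval −1.54 to 0.02, unadjusted p = 0.0550, adjusted p = 0.897, edgeR), and −0.30 without EV RV replicate 1. Of 6 tested genes of GARP and TGF-β activation, 3 were above and 3 below 0 on the log2 scale, none passed the adjusted p-value, and their median log2 fold change was 0.00, or −0.04 without EV RV replicate 1. *Tgfb1*, the cytokine itself, was at 297 TPM in EV RV replicate 1 and at 86.3 TPM in EV RV replicate 2 and 88.1 and 73.1 TPM in Tox RV. It had a log2 fold change of −1.15 with all libraries and −0.06 without EV RV replicate 1. *Nrros*, which anchors latent TGF-β on other cells, had a log2 fold change of 0.30, the integrin subunits *Itgav* and *Itgb8* 0.01 and −0.01, and the protease *Furin* 0.04. Leaving out EV RV replicate 1 gave 0.14, −0.02, −0.27 and 0.26. The latent TGF-β binding protein *Ltbp1* had 2 to 8 counts and was not tested.

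*Nrp1* encodes neuropilin-1, a coreceptor for semaphorins and VEGF that is present on most thymus-derived Tregs. It was at 54.2 and 50.9 CPM in EV RV and 35.9 and 39.8 CPM in Tox RV. The 2 EV RV libraries were close to each other, both Tox RV libraries lay below them, and the groups were separated by more than the distance within either group. The log2 fold change was −0.47 (SE 0.17, 95% confidence interval −0.89 to −0.05, a fold between 0.539 and 0.964), with an unadjusted p of 0.0327 and an adjusted p of 0.897 by edgeR's quasi-likelihood test. The unadjusted p was 0.0542 by DESeq2, and 0.128 by edgeR with scaling by library totals. Of the 7 genes, *Nrp1* varied least when single libraries were left out, from −0.54 without Tox RV replicate 2 to −0.41 without Tox RV replicate 1, and it was −0.43 without EV RV replicate 1. It did not pass the adjusted p-value in any of these fits. Of the 7 tested neuropilins, plexins and ligands, *Nrp1* included, 6 had a log2 fold change below 0, with a median of −0.43 (−0.31 without EV RV replicate 1). Over all genes tested, 49.6% were below 0 and the median was 0.00. *Plxna1*, a plexin that signals with neuropilins, was at 12.6 and 9.20 TPM in EV RV and 6.33 and 6.66 TPM in Tox RV, a log2 fold change of −0.66 (unadjusted p = 0.0169, adjusted p = 0.897, edgeR), or −0.46 without EV RV replicate 1. *Nrp2* (neuropilin-2) was at 0.55 and 3.08 TPM in EV RV and 0.31 and 1.07 TPM in Tox RV, so that the replicates of each group differed more than the groups. Its log2 fold change of −1.29 was −2.06 without EV RV replicate 1 and 0.42 without EV RV replicate 2. *Plxna3* had a log2 fold change of −0.43, *Sema4a*, a ligand of neuropilin-1 on Tregs, −0.13, *Vegfa* −0.08 and *Sema3a* 0.48. These were −0.28, −0.10, −0.31 and 1.22 without EV RV replicate 1, while *Plxna2* and *Plxna4* were not tested.

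*Gpr83* encodes an orphan receptor whose RNA is enriched in Tregs. It had 45 and 129 counts in EV RV and 46 and 62 counts in Tox RV, or 1.07 and 1.69 CPM in EV RV and 0.727 and 1.2 CPM in Tox RV. Tox RV replicate 1 was the lowest and EV RV replicate 2 the highest, and Tox RV replicate 2 lay between the EV RV libraries. Its log2 fold change was −0.54 (SE 0.44, 95% confidence interval −1.62 to 0.54, adjusted p = 0.897, edgeR) with all libraries and −0.83 without EV RV replicate 1. Unlike in the 5 more abundant genes, EV RV replicate 1 was not the highest library.

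*Ebi3* encodes the β subunit that pairs with p28 in IL-27 and with p35 (*Il12a*) in IL-35, a cytokine described in Tregs. It was at 12 and 8.58 CPM in EV RV and 6.99 and 6.25 CPM in Tox RV. Neither Tox RV library reached the lower EV RV library. In the fit, *Ebi3* had a log2 fold change of −0.64 (SE 0.25, 95% confidence interval −1.25 to −0.02), with an unadjusted p of 0.0445 and an adjusted p of 0.897 by edgeR's quasi-likelihood test, and it was −0.38 without EV RV replicate 1. The whole span of *Ebi3*, introns included, shares 2252 bases with that of the antisense gene *Gm16712*. *Gm16712* was at 3.48 and 3.72 CPM in EV RV and 2.83 and 1.87 CPM in Tox RV, with a log2 fold change of −0.61 (−0.66 without EV RV replicate 1). Only reads in shared exons could be confused where strand was not used, and how much exon the 2 genes share was not measured.

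The partner subunits of *Ebi3* were scarce. *Il12a* had 2 and 148 counts in EV RV and 7 and 19 counts in Tox RV, and *Il27* (p28) had 0 to 7 counts in each library. *Il12b* (p40), which is in the same family but is not one of these partners, had 0 to 6. Of these, only *Il12a* passed the low-count filter, and its log2 fold change of −2.13 rested on EV RV replicate 2, since without that library it was 2.25, against −3.07 without EV RV replicate 1. Of 6 tested genes of the IL-12 family and its receptors, 4 were below 0 (median −0.40, or −0.26 without EV RV replicate 1), beside 49.6% of all genes tested. *Il12rb2*, the receptor subunit that gives responsiveness to IL-12, was at 264 and 140.2 TPM in EV RV and 82.6 and 61.9 TPM in Tox RV. Its groups did not overlap, and its log2 fold change was −1.39 (SE 0.32), with an adjusted p of 0.897 by edgeR and 0.0111 by DESeq2, and −0.92 without EV RV replicate 1. No other gene of the lists examined passed the adjusted p-value in DESeq2. The receptor subunits *Il6st* and *Il27ra* had log2 fold changes of −0.16 and 0.14, and the p19 subunit *Il23a* 0.54, or −0.15, 0.50 and 0.69 without EV RV replicate 1.

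The 7 genes were then read together against all genes tested. By edgeR's quasi-likelihood test, 0 of the 7 passed an adjusted p of 0.05, and neither did any of the 14143 genes (0%), including *Tox* (adjusted p = 0.490). DESeq2, the tool named in the study's methods, called 22 genes (0.121% of those with an adjusted p), *Tox* among them (adjusted p = 3.79e-24), and again 0 of the 7. Before adjustment, *Nrp1* and *Ebi3* had a p below 0.05 in edgeR (2 of 7, beside 3.62% of all genes tested and 2.55% when only lower genes are counted), and *Ikzf4*, *Lrrc32* and *Ebi3* did so in DESeq2 (3 of 7, beside 3.21% of all genes, or 2.48% when only lower genes are counted). The Tox RV libraries were both below the EV RV libraries for *Lrrc32*, *Nrp1* and *Ebi3* (3 of 7, beside 17.4% of all genes), and both above them for none (18.6% of all genes), where 36% of all genes were separated in either direction. The log2 fold change was below 0 for 6 of the 7, beside 49.6% of all genes, with a median of −0.64 beside 0.00 over all genes. The 7 genes, like all lists here, were chosen with earlier results of these data known. These shares therefore describe the genes and are not independent support for a change. None of the 7 differed by more than 2-fold in the fit.

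**Figure D2:**
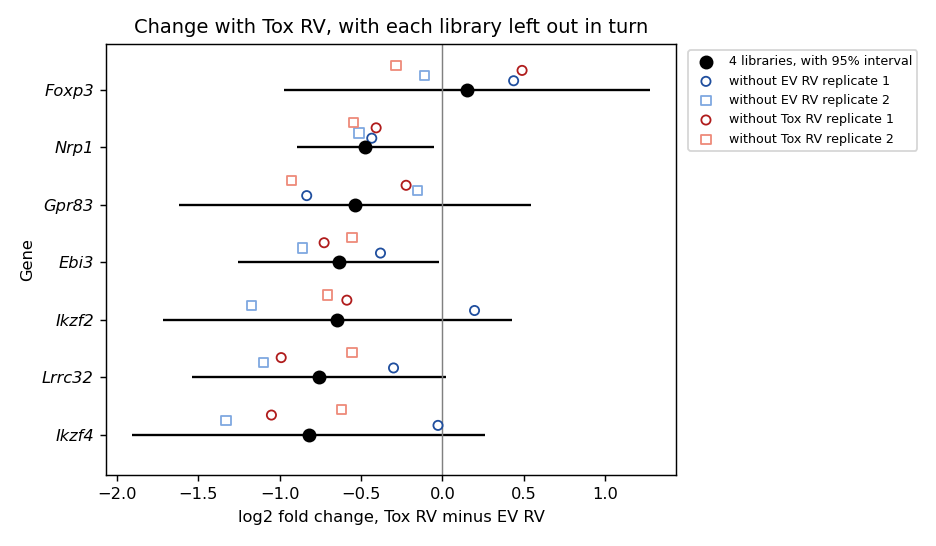
Log2 fold change of Tox RV over EV RV for each of the 7 genes, with its 95% confidence interval from edgeR's quasi-likelihood fit. *Foxp3* lies at 0.15 and the other 6 between −0.82 and −0.47, and the intervals of *Nrp1* and *Ebi3* alone end below 0 before adjustment.

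Much of this depended on EV RV replicate 1. It was the highest of the 4 libraries for 5 of the 7 genes, all but *Foxp3* and *Gpr83*, while it was the highest for 37% of all genes tested. Without it, 5 of the 7 log2 fold changes were below 0, beside 49.9% of all genes, and the median was −0.30, beside 0.00 over all genes. Without EV RV replicate 2, all 7 were below 0, beside 48.3% of all genes. With *Rn45s* left out of the table and of the library totals, the log2 fold changes were −0.65 for *Ikzf2*, −0.83 for *Ikzf4*, −0.76 for *Lrrc32* and −0.48 for *Nrp1*, close to the values with it. They were −0.64 for *Ebi3*, −0.55 for *Gpr83* and 0.15 for *Foxp3*. That fit removes the counts of *Rn45s* only, and what set EV RV replicate 1 apart was not tested. *Nrp1* was the gene with the smallest difference between the EV RV replicates, 0.09 on the log2 scale, and *Foxp3* was the one with the largest difference between the Tox RV replicates, −0.76.

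**Figure D3:**
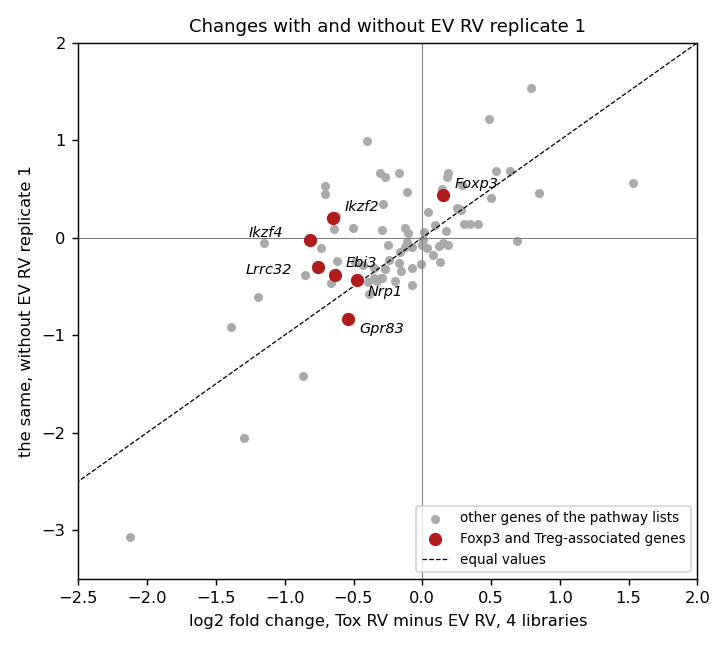
Log2 fold change of each of the 7 genes with all 4 libraries and without EV RV replicate 1, shown among the other genes of the lists. *Ikzf4* moves from −0.82 to −0.03 and *Ikzf2* from −0.65 to 0.20, while *Nrp1* moves only from −0.47 to −0.43.

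The wider set of Treg surface and effector genes was compared next. Of 32 such genes, 31 were listed and 28 tested. None passed the adjusted p-value in edgeR or DESeq2, 9 were above and 19 below 0 on the log2 scale, and the median was −0.14 (−0.08 without EV RV replicate 1). Over all genes tested, 49.6% were below 0 and the median was 0.00. The mean TPM of all 28 was above that of *Foxp3*, with a median of 56.2 TPM, and 26 of the 28 were above *Foxp3* in every library. *Il2ra* (CD25, the IL-2 receptor α chain) was at 436 and 490.4 TPM in EV RV and 379 and 336 TPM in Tox RV, with a log2 fold change of −0.29, or −0.42 without EV RV replicate 1. *Ctla4*, an inhibitory receptor, was at 226 and 310.4 TPM in EV RV and 255 and 283 TPM in Tox RV (0.08, turning to −0.17 without EV RV replicate 1). *Tnfrsf18* (GITR) was at 634 and 786 TPM in EV RV and 479.8 and 546 TPM in Tox RV (−0.39, or −0.58 without EV RV replicate 1). These receptors, which activated conventional CD4 T cells also carry, were thus abundant in both groups. The log2 fold change was −0.08 for *Tnfrsf4* (OX40), −0.33 for *Icos*, −0.27 for *Itgae* (CD103, an integrin subunit) and 0.00 for *Izumo1r* (folate receptor 4). Without EV RV replicate 1, it was −0.49, −0.44, 0.62 and −0.08 for these genes, so that *Itgae* turned, and *Tnfrsf4* turned to 0.49 without EV RV replicate 2. Chosen after their values were seen, the 2 genes of this set with an unadjusted p below 0.05 in edgeR were *Tnfrsf9* (4-1BB), at 631 and 682 TPM in EV RV and 948 and 810.1 TPM in Tox RV (unadjusted p = 0.0302, adjusted p = 0.897, edgeR), and *Tigit*, at 39.1 and 20.9 TPM in EV RV and 16.3 and 14.8 TPM in Tox RV (unadjusted p = 0.0351, adjusted p = 0.897, edgeR). Their log2 fold changes were 0.50 and −0.85, or 0.40 and −0.38 without EV RV replicate 1. These 2 genes are 7.14% of the 28, beside 3.62% of all genes tested with such a p in edgeR.

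**Figure D4:**
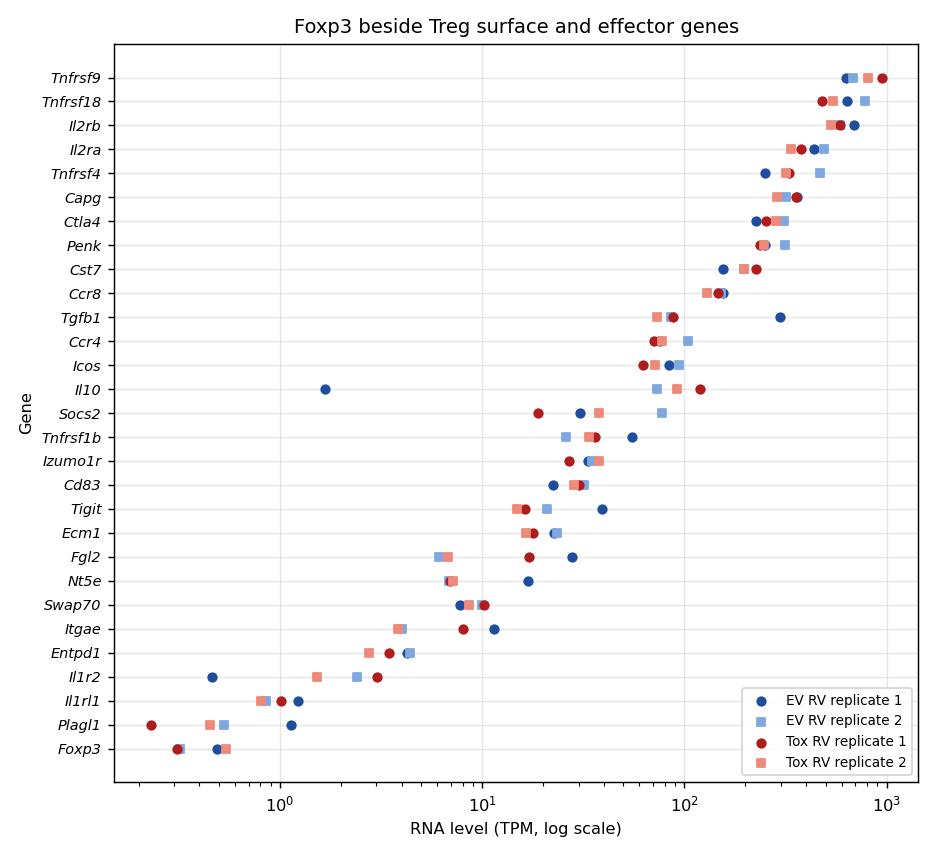
Level in TPM on a log axis of *Foxp3* and the 28 tested Treg surface and effector genes, with 1 point per library of EV RV and Tox RV. The mean TPM of all 28 lies above that of *Foxp3*.

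Finally, 28 regulators of *Foxp3* transcription were examined, and all of them were tested. None passed the adjusted p-value in edgeR or DESeq2. With all libraries, 12 were above and 16 below 0 (median −0.17), beside 49.6% of all genes tested below 0. The median was 0.08 without EV RV replicate 1. *Runx1* and *Cbfb*, the 2 parts of a complex that maintains *Foxp3* transcription, had log2 fold changes of −0.25 and 0.40, or −0.23 and 0.14 without EV RV replicate 1. *Stat5b*, which carries the IL-2 signal to *Foxp3*, was at −0.35, *Smad3*, which carries the TGF-β signal, at 0.25, and the chromatin organiser *Satb1* at −0.30. Without EV RV replicate 1, they were at −0.32, 0.30 and −0.42. *Foxo1*, a forkhead activator of *Foxp3*, was at −0.50, or at 0.10 without EV RV replicate 1. *Bach2*, a repressor of effector programmes, was at 74.8 and 20.4 TPM in EV RV and 28.3 and 25.9 TPM in Tox RV, so that its log2 fold change of −0.71 became 0.45 without EV RV replicate 1. Chosen after their values were seen, *Nr4a2* and *Id2* were the 2 regulators with an unadjusted p below 0.05 in edgeR, with log2 fold changes of 0.64 and 0.85 and adjusted p-values of 0.897 each. They are 7.14% of the 28 regulators, beside 3.62% of all genes tested with such a p in edgeR. *Nr4a2* was at 0.68 without EV RV replicate 1, and *Id2* at 0.46 without EV RV replicate 1 and 1.37 without EV RV replicate 2. *Nr4a2*, a nuclear receptor induced by T cell receptor signals, was higher in both Tox RV libraries, at 12 and 9.87 TPM against 7.83 and 7.03 TPM in EV RV. *Id2*, an inhibitor of E proteins, was at 118 and 209 TPM in EV RV and 329 and 231 TPM in Tox RV.

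The 5 genes whose pattern over the 4 libraries was nearest to that of *Foxp3*, by Euclidean distance of centred log2 CPM among 11942 genes, were *Sqrdl* (0.10), *Tmem198b* (0.126), *Srd5a1* (0.150), *Hist1h2af* (0.179) and *Selp* (0.197). *Hist1h2af* belongs to a family of near-identical histone genes, so that its counts are uncertain. None of the other 6 Treg-associated genes was near *Foxp3* by this measure, and their ranks ran from 6333 (*Nrp1*) to 11349 (*Ikzf4*). With 4 libraries, such distances are a description of these samples.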

How the data were processed

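RNA-seq was analysed from 4 libraries, 2 of EV RV and 2 of Tox RV, assigned by the sample labels. The authors used fastqc for read quality, bowtie for alignment to transcripts of mm10, and RSEM for quantification, 1 library at a time. The RSEM version and the use of strand are not given in the sources used here. The deposited expected counts are RSEM estimates, not normalized, in which a read that matches several genes is divided between them. The deposited TPM values are transcripts per 1000000 from the same program, beside a deposited abundance-weighted transcript length, and a deposited table of the whole series was not used here because its columns, named TPM, do not sum to 1000000.

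Expected counts were rounded and tested in R 4.3.3 with edgeR 4.0.16 (filterByExpr with a minimum count of 10, TMM, glmQLFit and glmQLFTest, no block, Benjamini-Hochberg over 14143 genes, threshold 0.05). P-values are two-sided and test the difference between Tox RV and EV RV. It is judged against the spread between libraries of a group, which edgeR estimates partly across genes. The common biological coefficient of variation was 0.232. Depth was 46989997 to 74548723 expected counts, a floor of 3 counts being 0.0394 to 0.0711 CPM, and Poisson intervals and the floor cover counting error only. Alternatives were DESeq2 1.42.0, RLE scaling, library totals, removal of *Rn45s*, other filters and thresholds, the replicate number as a block, limma 3.58.1 on log2(TPM + 1) and log2(TPM + 0.1), and leaving out each library. The script was tested on simulated counts in which no library was set apart as EV RV replicate 1 was. That test does not cover such a library.

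The 7 genes and all lists were chosen with earlier results of these data known. Named genes were the 7, every gene of the 5 short families, 14 set members of the 2 longer lists, list genes past an adjusted p of 0.05, *Tox*, and the 5 genes nearest to *Foxp3*. Others are marked. Promoters came from RefSeq (GRCm38.p6) and gene positions from GENCODE M21, matched by symbol.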

Additional observations from a re-analysis of the deposited data

How the results depend on the processing

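For the 7 genes, 0 passed an adjusted p of 0.05 under DESeq2, RLE scaling, library totals, removal of *Rn45s*, no low-count filter, a minimum count of 50, limma on either TPM scale and a threshold of 0.1. An unadjusted p below 0.05 gave 2, and leaving out 1 library gave 0 to 2 (2 without EV RV replicate 2). Over all genes, the count of 0 became 22 with DESeq2, 22 with no low-count filter, 512 with an unadjusted p below 0.05, and 1 to 600 on leaving out 1 library (1 without EV RV replicate 1, 600 without EV RV replicate 2, 12 without Tox RV replicate 1 and 23 without Tox RV replicate 2). With the replicate number as a block, 16 of all genes and 0 of the 7 passed, and the log2 fold changes were 0.14 for *Foxp3*, −0.49 for *Ikzf2* and −0.72 for *Lrrc32*. The correlation of the deviations of same-numbered libraries across genes was 0.302, and with 2 pairs and no label that ties the numbers to mice, the libraries share only a number. On leaving out 1 library, *Foxp3* ranged from −0.29 (without Tox RV replicate 2) to 0.49 and turned to −0.11 without EV RV replicate 2, and *Ikzf2* ranged from −1.17 to 0.20 (without EV RV replicate 1). The cause of these shifts was not tested. Outside the fits that leave out a library, no other sign among the 7 genes changed, and *Foxp3* ranged from 0.02 to 0.29. Scaling by library totals moved the median of all genes to 0.12. With 45 to 65 counts, *Foxp3* is limited by depth, and *Gpr83* (45 to 129 counts) likewise.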

Other observations

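Some relatives of the Treg-associated genes differed more between replicates than between the groups. *Foxp2*, a forkhead relative of *Foxp3*, had 43 counts in EV RV replicate 1 and 3, 8 and 7 counts in EV RV replicate 2 and Tox RV replicates 1 and 2. *Il10*, the anti-inflammatory cytokine made by Tregs and by activated effector cells, was at 1.68 TPM in EV RV replicate 1 and at 73.3, 119 and 91.9 TPM in the same 3 libraries. Both Tox RV libraries were nevertheless above both EV RV libraries for *Il10*, as for 18.6% of all genes tested. Its log2 fold change was 1.53 with all libraries (SE 1.33, adjusted p = 0.897, edgeR's quasi-likelihood test). It was 0.57 without EV RV replicate 1 and 6.10 without EV RV replicate 2. In the opposite direction, *Nrp2* had 868 counts and *Il12a* 148 counts in EV RV replicate 2, against 87 and 2 counts in EV RV replicate 1, and in Tox RV replicates 1 and 2 they had 76 and 226 counts (*Nrp2*) and 7 and 19 counts (*Il12a*). The choice of these genes followed their values, and the cause of the differences was not tested.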
